A study of Mus musculus with 16 samples.

Results

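The control culture of the study is described here: dispersed mouse islet cells that received an adenovirus carrying LacZ, which encodes bacterial β-galactosidase, together with DMSO, the vehicle of the inhibitor. These libraries were chosen by their treatment label, Ad-LacZ + DMSO, and there were 4 of them among 16 libraries in the series. All groups came from Grp78 flox/flox mice, so the controls carry the floxed alleles too, and all were kept in 15 mM glucose for 72 h. The other groups were Ad-LacZ + JNK Inh, which received the JNK inhibitor JNK-IN-8, Ad-Cre + DMSO, in which Cre recombinase was delivered to delete Grp78, and Ad-Cre + JNK Inh, with 4 libraries each.

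Cells were obtained from adult mice by collagenase digestion of the pancreas, a density gradient, an overnight rest and trypsin dispersion, and were then plated on plastic. The 4 libraries stand for 4 islet preparations, whose labels join F or M for the sex to a number: F1, M1, M2 and F2. Each label lists 2 animal numbers, so a library may hold pooled animals, and each preparation gave 1 library per condition. No sort by cell type is described, and which cell types took up the virus was not measured here. Levels are RPKM, that is reads scaled by gene length and by library size, as the authors deposited them. The depth read from the steps between low values lay between 15.7 M (mega) reads in M1 and 23.0 M in M2, with 22.3 M in F1 and 21.7 M in F2. At these depths, 3 reads on a gene of 1 kb amount to 0.130 to 0.191 RPKM, which counts reads only and not molecules.

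The sex-linked genes went against 2 of the 4 labels. Xist, the long noncoding RNA that coats the inactive X chromosome, was at 42.3 RPKM in the library labelled M2, at 3.03 in F1, at 0.199 in M1 and at 0.0283 in the library labelled F2. Ddx3y, a Y-linked RNA helicase gene, was at 25.3 RPKM in the library labelled F2, at 16.7 in M1, at 0.0430 in F1 and at 0.0167 in the library labelled M2. Uty, Kdm5d and Eif2s3y, the other Y-linked genes examined, were likewise present in F2 and M1 and near or at 0 in F1 and M2. The same held for the other 3 libraries of each preparation, where Xist lay between 27.1 and 46.4 RPKM in M2 and between 0.0197 and 0.0238 in F2. The hormone share, the number of genes that differed between preparations and some of the genes that varied most are therefore also given without both libraries. Hspa5, which encodes GRP78, was at 478, 483, 395 and 396 RPKM in F1, M1, M2 and F2, against 1107, 1114, 1237 and 1598 in the Ad-Cre + DMSO libraries of the same preparations. A gene-level value adds all exons, so it does not check the virus labels.

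Islets are clusters of endocrine cells in the pancreas. β cells make insulin and amylin, α cells make glucagon, δ cells make somatostatin, and PP cells make pancreatic polypeptide. Each hormone is made as a preprohormone that enters the endoplasmic reticulum (ER), folds with the help of chaperones and oxidases, passes through the Golgi, and is cut by prohormone convertases in granules packed with granins. Mice carry a pair of insulin genes, Ins1 and Ins2, whose protein products are both secreted.

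The insulin genes are so alike that their sequences bear on how reads are divided between them. Ins1 (ENSMUSG00000035804) lies on chromosome 19 at 52264297 to 52265476 on the plus strand, and Ins2 (ENSMUSG00000000215) on chromosome 7 at 142678656 to 142743381 on the minus strand, in GENCODE M21 on GRCm38. Their coding sequences were 327 and 333 bases long, and 302 of 327 aligned bases, or 92.4%, were identical. The longest identical run was 56 bases, shorter than a read of 150 bases. The first 150 coding bases of each are shown 5′ to 3′ from the start codon, with the 14 positions at which they differ in capitals.
Ins1: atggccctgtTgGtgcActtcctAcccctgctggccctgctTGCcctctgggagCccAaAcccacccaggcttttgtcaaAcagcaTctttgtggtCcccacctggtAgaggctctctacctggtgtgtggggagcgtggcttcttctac
Ins2: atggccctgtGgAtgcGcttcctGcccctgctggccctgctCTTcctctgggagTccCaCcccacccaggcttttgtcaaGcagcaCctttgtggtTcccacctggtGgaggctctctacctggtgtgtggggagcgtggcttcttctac
How the counting treated reads that fit both genes is not given in the sources used here, so the division of reads between Ins1 and Ins2 is uncertain.

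The insulin and glucagon genes were the most abundant transcripts in every library. Ins2 stood at 42737, 40027, 24209 and 34809 RPKM in F1, M1, M2 and F2, a mean of 35446 ± 8182 (SD, n = 4). Ins1 followed at 34425, 32317, 22583 and 21850 RPKM in the same order, with a mean of 27794 ± 6504. Both were higher in F1 and M1 than in M2 and F2. Gcg, which encodes glucagon (chromosome 2, 62474530 to 62483650, minus strand), was at 18702, 13268, 12334 and 12357 RPKM, so that F1 stood above the other 3. These 3 were the only genes above 10000 RPKM in each library, and together they held 24.9% ± 4.09 of all RPKM.

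The next places were taken by amylin and the granins. Iapp, which encodes amylin, was at 5509, 4411, 3681 and 2214 RPKM in F1, M1, M2 and F2. Chga, the chromogranin A gene, was at 4874, 3588, 3091 and 3494 RPKM. Scg2, the secretogranin II gene, was at 2625, 3101, 2229 and 2661 RPKM, and Chgb, the chromogranin B gene, at 1832, 1998, 2308 and 2959. Chgb was highest in F2, whereas Chga and Iapp were highest in F1. The minor islet hormones came next, with means of 2140 RPKM for Pyy (peptide YY), 2004 for Sst (somatostatin) and 1917 for Ppy (pancreatic polypeptide). Ghrl, the ghrelin gene, was at 0.415, 0, 0.242 and 0.171 RPKM in F1, M1, M2 and F2.

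Among the 20 genes with the highest mean, 15 were protein coding, 3 were annotated as pseudogenes, 1 as a miRNA gene and 1 as a mitochondrial ribosomal RNA. Besides the hormones and granins they held Cpe, the carboxypeptidase that trims cut prohormones, at 1355 ± 157 RPKM, G6pc2, the islet glucose-6-phosphatase, at 790 ± 163, Acly, which makes cytosolic acetyl-CoA, at 796 ± 41.3, and Eef1a1, a translation elongation factor, at 782 ± 91.1. The pseudogene Gm10736 is 78 bases long and the miRNA gene Mir682 96 bases, so their 1638 and 1284 RPKM rest on a short length and on reads that may have come from longer near-identical genes. The last gene inside was Scg3 with 697 RPKM and the first outside was Pcsk2 with 614. In all, 235 of the 25105 listed genes held 50% of the mean RPKM, 10835 genes exceeded 1 RPKM in all 4 libraries, and 6145 were at 0 in all 4. The number with a mean above 1 RPKM was 11574.

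**Figure D1:**
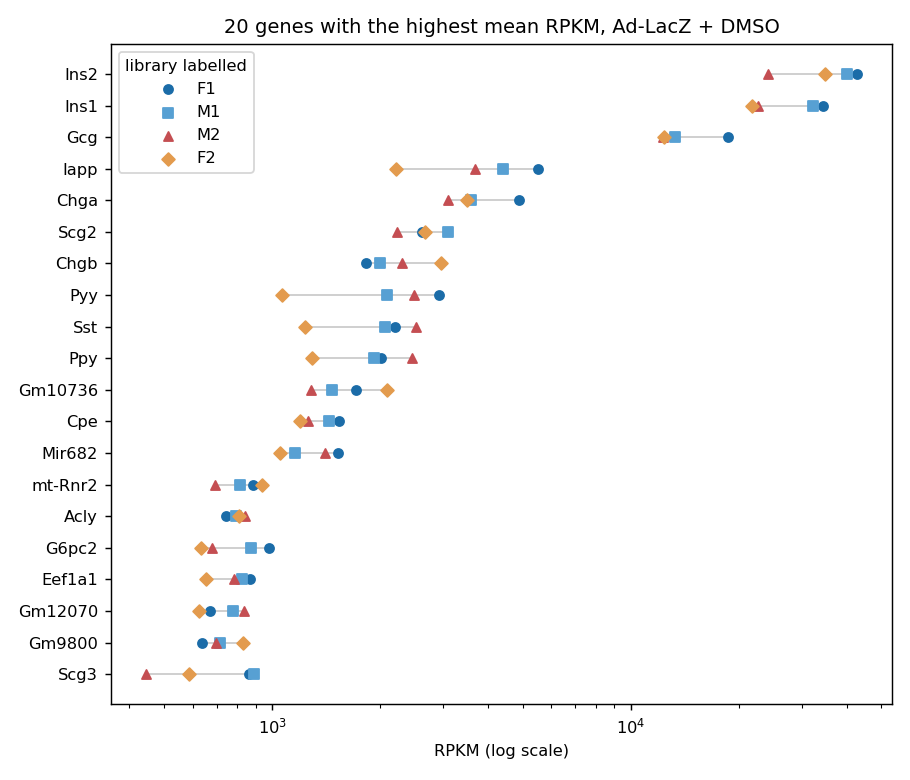
The 20 genes with the highest mean, one row per gene. The horizontal axis is RPKM on a log scale, each symbol is 1 library and the grey line joins the lowest and the highest. Ins2, Ins1 and Gcg lie above 10000 RPKM in all 4 libraries, and Acly spans only 743 to 841.

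The sequence before the start of 5 of these genes is shown because several granin and hormone promoters are known to respond to cAMP through the element TGACGTCA and its core TGACG. The windows hold the 250 bases before the RefSeq start on GRCm38.p6, 5′ to 3′ on the strand of the gene. For Sst, Scg2 and Chga the capitals mark TGACG on either strand, which overlaps itself within TGACGTCA. For Gcg and Iapp they mark CATCTG on either strand, an E box of the kind that NEUROD1 binds. The windows of Gcg and Iapp hold no TGACG, and those of Sst, Scg2 and Chga hold no CATCTG. The genes shown and the motif marked in each were chosen by hand, so this division is not a result.
Sst, chr16:23890845-23891094, minus strand: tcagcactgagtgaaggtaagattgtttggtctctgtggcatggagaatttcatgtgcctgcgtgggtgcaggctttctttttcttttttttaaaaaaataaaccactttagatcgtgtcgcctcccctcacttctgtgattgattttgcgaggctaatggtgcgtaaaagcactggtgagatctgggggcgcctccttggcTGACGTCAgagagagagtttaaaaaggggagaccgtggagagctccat
Scg2, chr1:79440027-79440276, minus strand: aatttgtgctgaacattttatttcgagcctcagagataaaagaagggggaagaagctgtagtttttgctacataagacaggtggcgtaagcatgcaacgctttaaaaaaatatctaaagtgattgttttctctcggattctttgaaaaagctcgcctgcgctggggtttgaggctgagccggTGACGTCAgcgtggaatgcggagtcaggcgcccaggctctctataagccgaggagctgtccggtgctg
Chga, chr12:102554691-102554940, plus strand: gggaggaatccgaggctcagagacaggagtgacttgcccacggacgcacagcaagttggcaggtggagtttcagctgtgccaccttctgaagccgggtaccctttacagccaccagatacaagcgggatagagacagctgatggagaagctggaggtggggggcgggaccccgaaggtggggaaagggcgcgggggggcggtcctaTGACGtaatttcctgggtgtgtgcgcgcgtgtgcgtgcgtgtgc
Gcg, chr2:62483654-62483903, minus strand: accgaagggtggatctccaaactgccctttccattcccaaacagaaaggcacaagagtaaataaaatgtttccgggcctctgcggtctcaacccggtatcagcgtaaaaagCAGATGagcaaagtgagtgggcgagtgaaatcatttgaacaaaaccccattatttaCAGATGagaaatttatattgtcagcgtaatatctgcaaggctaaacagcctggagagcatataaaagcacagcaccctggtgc
Iapp, chr6:142298175-142298424, plus strand: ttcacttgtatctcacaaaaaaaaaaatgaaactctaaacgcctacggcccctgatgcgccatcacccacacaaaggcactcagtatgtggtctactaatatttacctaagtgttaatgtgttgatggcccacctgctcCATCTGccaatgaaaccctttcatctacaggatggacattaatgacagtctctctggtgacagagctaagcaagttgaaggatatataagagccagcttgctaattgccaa
Of the 20 most abundant genes, 13 had a window. TGACG was found in 5 of the 13 (38.5%) against 19.8% of all 27025 genes with a window, and TGACGTCA in 3 of the 13, namely Sst, Scg2 and Chgb, against 1.77% of all. CATCTG was found in 4 of the 13 (30.8%) against 16.3%. These are letter matches in a window and not measured binding.

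The share of hormones lay between 23.5% and 32.9%. The 8 hormone genes held 32.9%, 30.4%, 23.5% and 25.4% of summed RPKM in F1, M1, M2 and F2, a mean of 28.1% ± 4.34 (SD, n = 4). F1 and M1 were both above M2 and F2, and without the libraries labelled M2 and F2 the mean was 31.7%. The insulin genes made most of this share, with 23.4%, 22.9%, 15.7% and 19.3%, and the other 6 hormones held 9.51%, 7.52%, 7.87% and 6.17%. In a bulk sample, fewer cells of a type and less RNA per cell cannot be told apart. The share also depends on length: as a share of RPKM times exon length, which follows reads, it was 13.2%, 11.7%, 8.27% and 9.55%, a mean of 10.7% ± 2.21. The exon length of Ins2 was 1312 bases in the annotation, while the first Ins2 transcript of the annotation has 478 bases, so a different choice of length would raise its RPKM.

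**Figure D2:**
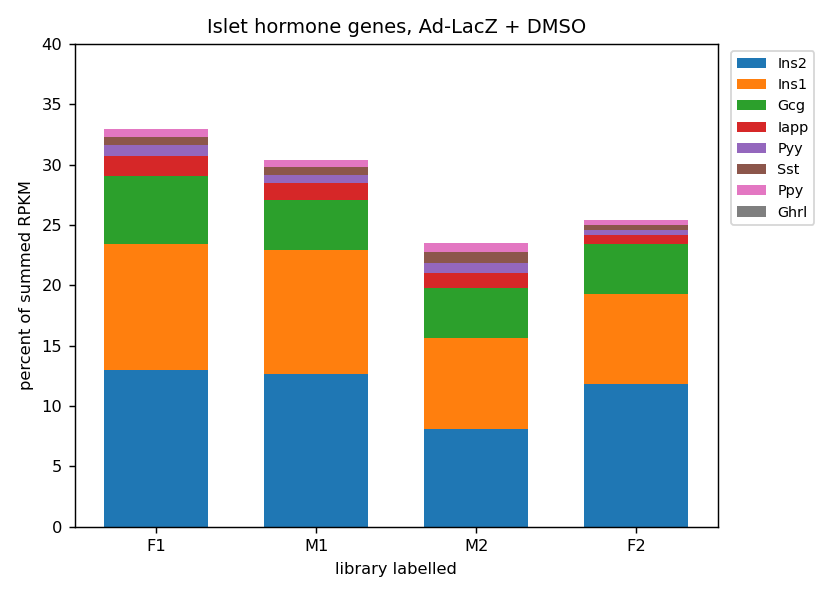
Share of summed RPKM held by each hormone gene, in percent, stacked by gene, with 1 bar per library labelled F1, M1, M2 and F2. The bars reach 32.9%, 30.4%, 23.5% and 25.4%, and Ins2 and Ins1 make up most of each.

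The ratios between hormones differed between the libraries. Ins2 over Ins1 was 1.24, 1.24, 1.07 and 1.59 in F1, M1, M2 and F2 on RPKM. The insulin genes together exceeded Gcg by 4.13, 5.45, 3.79 and 4.59 times. Ins2 over Iapp was 7.76, 9.07 and 6.58 in F1, M1 and M2 but 15.7 in F2, which had the lowest Iapp. Pyy over Ppy was 1.45, 1.09, 1.02 and 0.829.

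The baseline hormone share was set beside that of the other conditions, all of which share these 4 libraries as their reference. In Ad-LacZ + JNK Inh it was 24.1%, 24.9%, 18.3% and 20.2% in F1, M1, M2 and F2. In Ad-Cre + DMSO it was 31.2%, 27.4%, 17.5% and 20.1%, and in Ad-Cre + JNK Inh 26.0%, 23.1%, 22.9% and 22.0%. The Ad-Cre + JNK Inh library of F2 had the lowest depth of the series, 7.72 M reads. Its column name also has another prefix than those of all other libraries. The share was below the baseline in 4 of 4 preparations in each condition, while the ranges overlapped. The mean difference was -6.18 percentage points with the inhibitor, -4.05 with Cre and -4.60 with both. The SDs of these paired differences were 1.73, 2.01 and 3.17. The exact two-sided permutation test gave p = 0.114, 0.343 and 0.114, or 0.171, 0.343 and 0.171 after Benjamini-Hochberg adjustment over the 3 comparisons, with 0.0286 the smallest p that 4 against 4 allows. None passed.

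Whether the 4 preparations differed gene by gene was tested with the 8 Ad-LacZ libraries, where the parallel Ad-LacZ + JNK Inh culture of a preparation served as its second library. limma's F-test on log2(TMM-scaled RPKM + 1), with the inhibitor as a term, called 472 of 11657 genes at a Benjamini-Hochberg adjusted p under 0.05, which is 4.05%, and 2630 genes (22.6%) had an unadjusted p under 0.05. The counts of list members below are set against these shares of all genes. TMM is a scaling to a trimmed mean of ratios. The number of calls was 9 without replicate M2, 25 without replicate M1, 687 without F1 and 573 without F2. It was 111 without the libraries labelled M2 and F2. The 20 called members of the lists below, sex-linked genes aside, had adjusted p from 0.0198 to 0.0485. None of those that could be tested again was called without M1 or without M2. There limma's adjusted p ran from 0.0929 to 0.329 and from 0.183 to 0.697. All calls fell to 25 and 9 in these fits, so this does not show that each call rests on those 2 preparations. Without F1, 16 of the 20 were called again, and without F2, 13. Without F2 limma's adjusted p was 0.584 for Sst and 0.282 for Pyy. Without a filter none of the 20 was called, with RPKM as deposited 8 were, and with quantile normalization 7.

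Of the 7 hormone genes that passed the filter, Sst and Pyy were called, that is 2 of 7 beside the background of 4.05%. An unadjusted p under 0.05 was found for 6 of the 7, beside 22.6% of all genes. Sst was at 2197, 2070, 2513 and 1238 RPKM in F1, M1, M2 and F2 (limma's adjusted p = 0.0438). Pyy was at 2912, 2087, 2493 and 1068 RPKM (limma's adjusted p = 0.0452). For both genes F2 was the low library. Ppy was also lowest in F2, at 1289 RPKM against 1922 to 2450 (limma's adjusted p = 0.0936). For Ins2 and Ins1 limma's adjusted p was 0.0697 and 0.171.

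The listed transcription factor genes of β cells were all detected. Of 15 β cell transcription factor genes, all had a mean above 1 RPKM and 13 above 10. Mafa, a β cell activator of the insulin genes, was the highest at 508, 444, 344 and 285 RPKM in F1, M1, M2 and F2. Nkx6-1, which maintains β cell identity, was at 120, 115, 89.3 and 74.3 RPKM, and Pdx1, which is required for pancreas and β cell development, at 89.4, 109, 73.9 and 84.3. Mafa and Nkx6-1 were higher in F1 and M1 than in M2 and F2, whereas Neurod1 had the reverse order, 82.9, 84.7, 133 and 159 RPKM. limma's adjusted p for these 4 genes was between 0.0591 and 0.663. Foxa2 (34.1 ± 1.33 RPKM) and Nkx2-2 (48.7 ± 2.15 RPKM) were nearly level over the libraries. Mnx1 and Glis3 were called, 2 of 15 beside 4.05% of all genes, and 7 had an unadjusted p under 0.05, beside 22.6%. Both called genes were highest in M1, at 16.3 and 6.85 RPKM, against 9.74 to 11.7 and 4.16 to 5.25 elsewhere (limma's adjusted p = 0.0462 and 0.0485).

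Genes of glucose sensing showed a wide range. Slc2a2, the glucose transporter GLUT2, was at 126 RPKM in F1 and 130 in M1 against 73.2 in M2 and 76.8 in F2 (limma's adjusted p = 0.0353). G6pc2 was at 978, 871, 679 and 632 RPKM in the same order (limma's adjusted p = 0.0393). Gipr, the receptor for the incretin GIP, had the opposite order, with 2.79 and 3.55 RPKM in F1 and M1 and 7.43 and 6.68 in M2 and F2 (limma's adjusted p = 0.0198). These were the 3 called of 15 tested, beside 4.05% of all genes, and 11 of the 15 had an unadjusted p under 0.05, beside 22.6%. The KATP channel genes Abcc8 and Kcnj11 were at 143 ± 28.5 and 30.8 ± 3.21. Ucn3, a marker of mature β cells, was at 231, 330, 173 and 348 RPKM, and F2 and M1 were the high libraries.

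Genes that β cells normally keep low were at low levels here. Of 13 disallowed or dedifferentiation genes, only Ldha, lactate dehydrogenase A, had a mean above 10 RPKM, with 11.8, 18.7, 26.1 and 15.9. Aldh1a3, which marks dedifferentiated β cells, was at 0.824, 0.786, 3.75 and 1.29 RPKM, so that M2 was the high library. limma's test called 0 of the 11 tested, and 6 had an unadjusted p under 0.05. The proliferation genes Mki67 and Top2a were at 3.33 ± 0.640 and 2.43 ± 0.367 RPKM, and 0 of 7 proliferation genes were called, 1 of them with an unadjusted p under 0.05.

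Other endocrine cells were clearly represented. Among 9 α cell markers, Ttr was at 617, 468, 388 and 464 RPKM and Gc at 118, 129, 191 and 242. Irx2 was at 7.55, 4.44, 7.02 and 4.74 RPKM (limma's adjusted p = 0.0446). Among δ cell markers, Rbp4 followed Sst with 73.8, 53.8, 65.4 and 32.3 RPKM (limma's adjusted p = 0.0253), lowest in F2. Hhex, the δ cell transcription factor, was at 4.32, 4.21, 6.82 and 3.41 RPKM and Casr at 25.4 ± 1.51.

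Cells other than endocrine cells left unequal traces. Exocrine acinar cells, which make digestive enzymes, were barely seen: of 13 acinar markers 6 were at 0 in all 4 libraries, namely Cpb1, Prss2, Ctrb1, Cela2a, Cela3b and Ptf1a, and Cpa1, Cel, Pnlip and Clps did not exceed 0.116 RPKM. Bhlha15, at 15.9 ± 1.46 RPKM, made most of the acinar sum and is also active in other secretory cells. Of the lymphocyte list, Cd79a was at 1.07 ± 0.381 RPKM and the other 7 markers were at or below 0.103. The red blood cell markers summed to at most 0.425 RPKM, and the Schwann cell markers to 2.51 to 4.12.

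Macrophage markers were present at an even level, with sums of 95.5, 102, 91.4 and 103 RPKM in F1, M1, M2 and F2. C1qa, a complement subunit made by macrophages, was at 31.1 ± 2.56 RPKM and Lyz2, lysozyme, at 29.5 ± 4.94. limma's test called 0 of 10 macrophage markers, and 1 had an unadjusted p under 0.05. With the inhibitor the sums were 174, 229, 364 and 368 RPKM in the same order. The test uses both groups, so its 0 calls do not bear on the baseline alone. The endothelial markers summed to 47.3, 50.6, 80.1 and 47.8 RPKM, with M2 above the other 3. Esm1, an endothelial proteoglycan, made the largest part with 27.4, 28.7, 41.7 and 24.5 RPKM. Of 7 endothelial markers tested 0 were called and 5 had an unadjusted p under 0.05. Among duct markers, Krt7 was at 44.5 ± 5.46 RPKM, while Krt19, Sox9 and Cftr stayed below 1. Spp1, osteopontin, was at 109, 93.0, 221 and 219 RPKM, with M2 and F2 above F1 and M1 (limma's adjusted p = 0.1).

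Among the lists of non-endocrine cells, stellate and fibroblast markers had the most calls between preparations. Their sum was 249, 414, 838 and 542 RPKM in F1, M1, M2 and F2, a ratio of the highest to the lowest of 3.37. With the inhibitor it was 244, 523, 1704 and 986 RPKM in the same order. The test uses both groups, so its calls on these markers do not bear on the baseline alone. Acta2, smooth muscle actin, was at 140, 241, 448 and 295 RPKM (limma's adjusted p = 0.0353), and Tagln, transgelin, at 67.5, 113, 212 and 136 (limma's adjusted p = 0.0409). Col1a1, a collagen I chain, was at 13.1, 18.4, 60.3 and 31.6 RPKM (limma's adjusted p = 0.0340), and Bgn, biglycan, at 14.9, 24.8, 62.2 and 50.1 (limma's adjusted p = 0.0239). In all 4 genes M2 was highest and F1 lowest. These were 4 called of 8 tested, beside 4.05% of all genes, and all 8 had an unadjusted p under 0.05, beside 22.6%. The fibroblast markers Dcn and Lum were at most 0.986 and 0.0888 RPKM, and Pdgfra was at 0.0759, 0.597, 2.18 and 0.877. The preparations with more of these markers, M2 and F2, were those with the lower hormone share. The part of these cells in the hormone share was not tested.

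**Figure D3:**
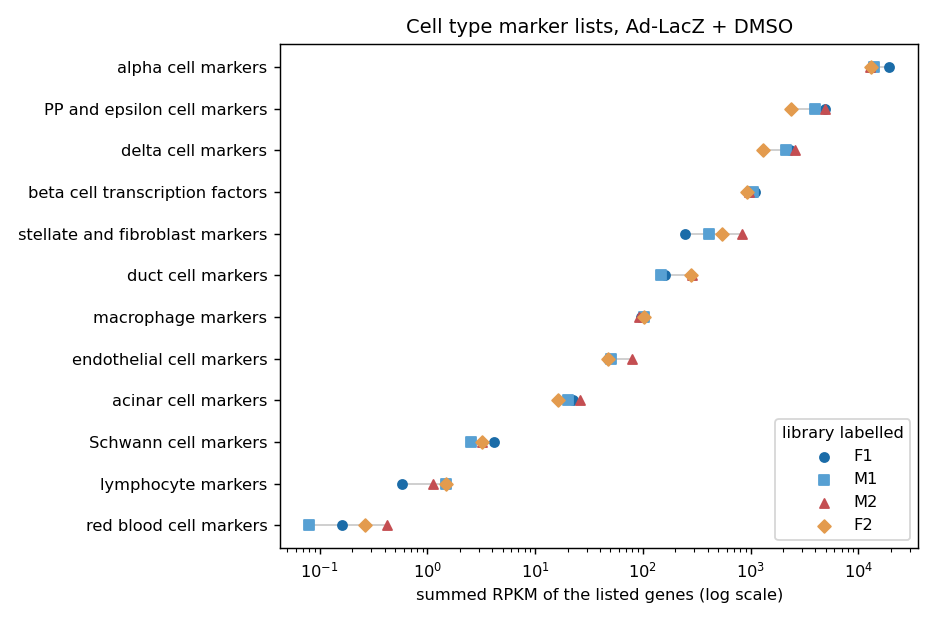
Summed RPKM of each marker list, on a log axis, with 1 symbol per library and a grey line from the lowest to the highest. The stellate and fibroblast sums run from 249 in F1 to 838 in M2, and the macrophage sums lie within 91.4 to 103.

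The secretory pathway was described in the order in which a prohormone meets it. Translocation into the ER was represented by 19 listed genes, all above 1 RPKM, with a median of 67.7. Srpr, a subunit of the receptor for the signal recognition particle, was at 230, 257, 183 and 202 RPKM, and Spcs1, of the signal peptidase, at 241, 232, 190 and 196. Ssr3, of the translocon-associated complex, was nearly level at 130 ± 1.16 RPKM. limma's test called 0 of the 19, and 11 had an unadjusted p under 0.05, beside 22.6% of all genes.

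ER chaperones had a median of 92.7 RPKM over 15 genes. Hsp90b1, which encodes GRP94, was at 564, 593, 445 and 592 RPKM in F1, M1, M2 and F2, and Hspa5 at 438 ± 49.0. Calr, the lectin chaperone calreticulin, was at 279 ± 34.8 RPKM and its membrane-bound counterpart Canx at 174 ± 6.57. The called genes were Hyou1, a nucleotide exchange factor for GRP78, at 160, 169, 125 and 109 RPKM, and Sdf2l1, a partner of GRP78, at 74.4, 75.5, 47.6 and 38.2 (limma's adjusted p = 0.0392 and 0.0371). In both genes F1 and M1 were above M2 and F2. They were 2 of 15 tested, beside 4.05% of all genes, and 6 of the 15 had an unadjusted p under 0.05, beside 22.6%.

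Among disulfide isomerases and oxidases, Pdia3 was at 425 ± 37.8 RPKM and P4hb, the protein disulfide isomerase itself, at 372 ± 35.7. Ero1lb, the oxidase that islets use to recharge P4hb, was at 318, 290, 220 and 219 RPKM (limma's adjusted p = 0.0409). It exceeded Ero1l, the widely expressed paralog, by 6.09, 5.41, 4.51 and 4.71 times per length. Ero1lb was the only call of 13, beside 4.05% of all genes, and 6 had an unadjusted p under 0.05, beside 22.6%. Among sensors and degradation genes of the unfolded protein response, Os9 was highest at 139 ± 25.3 RPKM. Xbp1, spliced by IRE1, was at 99.9 ± 12.5 RPKM, Atf4 at 116 with an SD of 20, Atf6 at 36.7 ± 3.89, Ern1, which encodes IRE1α, at 21.9 ± 2.11 and Eif2ak3, which encodes PERK, at 16.8 ± 1.54. The stress regulator Ddit3, or CHOP, was at 8.36, 8.10, 11.0 and 9.43 RPKM, and Trib3, its target, at 20.1, 19.3, 15.2 and 8.64. Only Derl3 was called of 18, at 2.22, 2.24, 1.13 and 2.08 RPKM (limma's adjusted p = 0.0485), beside 4.05% of all genes. An unadjusted p under 0.05 was found for 10 of the 18, beside 22.6%.

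Transport from the ER to the Golgi had a median of 64.1 RPKM over 19 genes, from Sec24a at 7.63 ± 2.58 to Arf1 at 215 ± 20.7. Copb1 and Cope, subunits of the COPI coat, were level at 64.1 ± 1.10 and 56.0 ± 1.19 RPKM. limma's test called 0 of the 19, and 8 had an unadjusted p under 0.05.

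The granule genes stood highest, with a median of 291 RPKM over 17 genes and 4.40% ± 0.226 of all RPKM. Pcsk2, the prohormone convertase PC2, was at 697, 691, 548 and 522 RPKM, and Pcsk1, the convertase PC1/3, at 186, 187, 136 and 137 (limma's adjusted p = 0.0409). F1 and M1 were above M2 and F2 for both. Pcsk1 was the only call of 17, beside 4.05% of all genes, and 12 had an unadjusted p under 0.05, beside 22.6%. Pcsk2 over Pcsk1 was even over the libraries, 3.82 ± 0.148. Scg3, secretogranin III, was at 863, 890, 445 and 588 RPKM, and Vgf, another granin-like gene, at 58.8, 38.2, 36.0 and 22.7. Slc30a8, the granule zinc transporter, was at 256 ± 27.8 RPKM. Resp18 was at 514 ± 55.4 RPKM, and after TMM scaling its SD was 0.07 on the log2 scale.

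Exocytosis genes were less abundant, with a median of 43.2 RPKM over 13 genes. Cplx2, a complexin, was at 134 ± 11.1 RPKM, whereas its paralog Cplx1 did not exceed 0.0841. Vamp2 and Snap25, SNARE proteins of vesicle fusion, were at 49.0 ± 4.19 and 14.4 ± 3.35 RPKM. limma's test called 0 of 12, and 5 had an unadjusted p under 0.05.

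**Figure D4:**
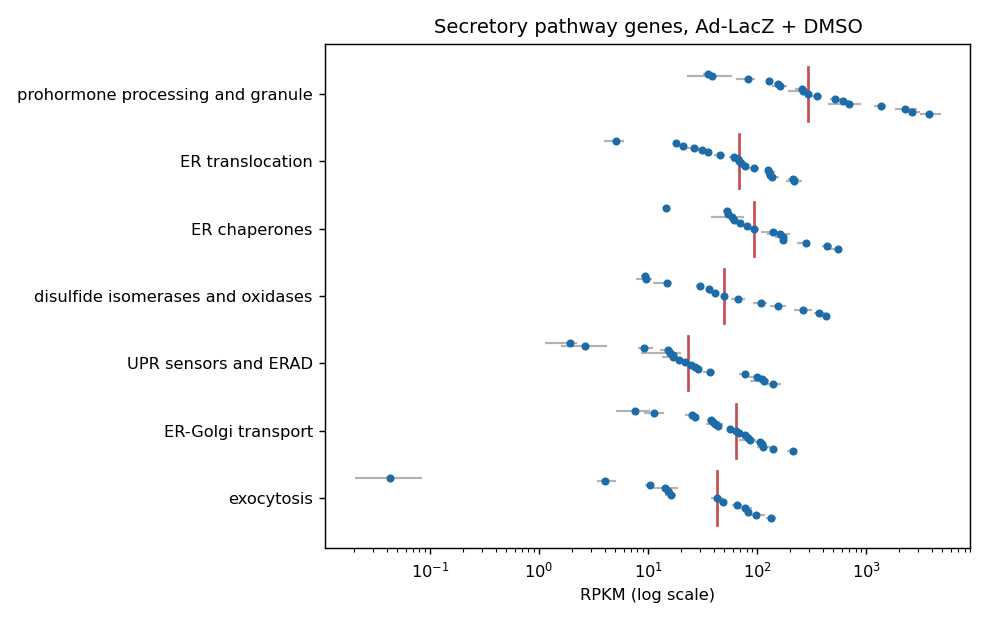
Secretory pathway genes by list. The horizontal axis is RPKM on a log scale, each point is the mean of the 4 libraries for 1 gene, the grey line spans its lowest and highest library, and the red line is the median of the list. The median is highest for granule genes, 291 RPKM, and lowest for sensors and degradation genes, 23.3.

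Stress and inflammation genes covered a wide range. The median of 11 AP-1 and immediate-early genes was 6.38 RPKM, against 7.34 over all genes tested. Of these, Jund was at 125, 117, 115 and 69.5 RPKM and Jun at 16.7, 15.7, 28.6 and 22.2, while Fos was at 2.46 ± 0.475. Of 10 interferon-stimulated genes, Ifi27 was the only one above 10, at 14.0 ± 2.73 RPKM, and Isg15 was at 0.321 ± 0.217. Both lists had 0 calls in limma's test, of 9 and of 8 tested, and 1 gene each with an unadjusted p under 0.05. Among chemokines and cytokines, Ccl2 was at 2.46 ± 0.704 RPKM, and Il6 at 0.166, 0.786, 2.44 and 0.986. Il6 was the only call of 3 tested (limma's adjusted p = 0.0273), beside 4.05% of all genes. At baseline only M2 was above 1 RPKM, so Il6 passed the filter through its JNK Inh libraries. Its call therefore does not describe the baseline alone.

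The 4 libraries fell into a closer and a looser pair. Pearson's r across 11574 genes, on log2 values and as a description since genes are not independent replicates, was 0.990 between F1 and M1, 0.975 between M2 and F2, and 0.960 to 0.969 for the other pairs. Of the 472 called genes, 277 (58.7%) had every Ad-LacZ library of F2 and M2 above every one of F1 and M1, against 8.66% of all genes tested. The reverse held for 80 called genes (16.9%), against 13.3% of all tested. The called genes were chosen by a test between preparations on these same libraries. A higher share of separated genes among them is therefore partly built in, and it does not bear on the pairs.

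The genes that varied most among the baseline libraries, by the SD of TMM-scaled log2 values among genes with a mean of at least 10 RPKM, were Ddx3y, Mir5125, Xist, Endou, Mir703, Meg3, Snord96a, Fn1, Pisd-ps1 and Cnn1, with SDs from 2.56 to 1.48. The next gene, n-R5s123, had 1.44, and the median over all genes tested was 0.17. Meg3, an imprinted long noncoding RNA, was at 2.94 RPKM in F1 and 2.24 in M1 against 27.0 in M2 and 30.1 in F2 (limma's adjusted p = 0.000955). Fn1, fibronectin of the extracellular matrix, was at 7.31, 13.3, 92.7 and 57.3 RPKM (limma's adjusted p = 0.00383). Endou, an endoribonuclease, was at 1.47, 1.94, 24.3 and 22.8 RPKM (limma's adjusted p = 0.0294). In each of these genes M2 and F2 were above F1 and M1 without overlap. Endou was not called with no filter (limma's adjusted p = 0.0743), without M1 (0.119) or without M2 (0.205), and Fn1 not without M2 (0.0669). Mir703, which is 109 bases long, was instead low only in M1, at 2.34 RPKM against 26.3 to 44.8, and that value rests on 4 reads.

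Other genes with the smallest p had the same order of preparations, M2 and F2 above F1 and M1. Rsrp1, an arginine- and serine-rich nuclear protein gene, was at 9.18, 8.32, 51.4 and 45.5 RPKM (limma's adjusted p = 0.00145). Cnn1 and Actg2, contractile genes of smooth muscle, were at 1.08, 5.00, 22.5 and 13.8 and at 6.06, 27.4, 66.5 and 42.5 RPKM. Leng8 was at 4.00, 4.23, 18.1 and 18.7 RPKM and Erdr1 at 4.95, 3.69, 19.6 and 18.1. The nuclear long noncoding RNAs Malat1 and Neat1, chosen after their values were seen, were at 52.6, 22.5, 147 and 195 RPKM and at 0.767, 0.637, 12.2 and 9.79. They too were higher in M2 and F2. Without the libraries labelled M2 and F2, which leaves F1 against M1, limma's adjusted p was 0.00683 for Fn1, 8.24e-05 for Cnn1 and 3.52e-06 for Actg2. F1 was below M1 at baseline in these genes. For Meg3 limma's adjusted p was 0.873, for Endou 0.982, for Rsrp1 0.976, for Leng8 0.990 and for Erdr1 0.876. Erdr1 and Pisd-ps1 were also not called without M2 alone (0.0669 for both).

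**Figure D5:**
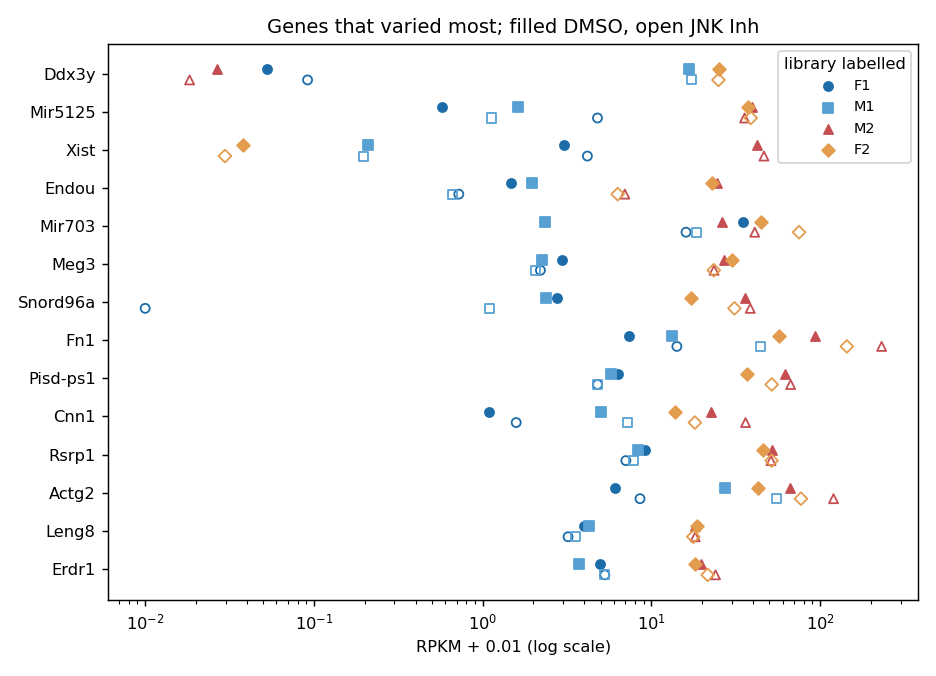
Genes with the largest SD and the smallest p among preparations. The horizontal axis is RPKM + 0.01 on a log scale, colours and shapes mark the preparation, filled symbols are Ad-LacZ + DMSO and open symbols Ad-LacZ + JNK Inh. For Meg3, Rsrp1, Leng8 and Pisd-ps1, both libraries of M2 and F2 lie to the right of both libraries of F1 and M1.

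At the other end, the 5 genes with the smallest SD of TMM-scaled log2 values among those with a mean of at least 100 RPKM were Hsp90aa1, Pabpc1l2b-ps, Acly, Gm7964 and Hspa9. Hsp90aa1, a cytosolic chaperone, was at 113, 118, 127 and 121 RPKM and Hspa9, the mitochondrial HSP70, at 102, 105, 111 and 105. Pabpc1l2b-ps and Gm7964 are annotated as pseudogenes. Of 2 common reference genes, chosen after their values were seen, Actb was at 346, 376, 551 and 434 RPKM and Gapdh at only 3.98, 4.30, 4.86 and 13.8. Gapdh has many near-identical copies in the genome, so its value is uncertain.

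The question whether female and male preparations differ was put to the 4 baseline libraries by label, F1 and F2 against M1 and M2. limma called 0 of 11691 genes, that is 0%, at an adjusted p under 0.05, and 105 genes (0.898%) had an unadjusted p under 0.05. Since the sex-linked genes of M2 and F2 went against their labels, this contrast does not compare libraries that differ by Xist and Y-linked genes.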

How the data were processed

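Libraries of poly(A) RNA were sequenced as paired reads of 150 bases. The authors aligned them to the mouse genome (GRCm38, per the submitters' processing notes) for raw counts, for which they cite STAR, and deposited RPKM values. The setting of the counting, the annotation and the step to RPKM are not given in the sources used here. Another 3 value columns, which match no sample, were left out. Depth was read from RPKM times the exon length of GENCODE M21, which 25093 of the 25105 genes have, and 93.3% to 94.2% of low values came out within 0.02 of a whole read. Intervals on counts and floors cover counting error only.

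Levels and shares, with their SDs, are on RPKM as deposited, and SDs of log2 values on TMM-scaled RPKM + 1. Tests used R 4.3.3 and limma 3.58.1 (lmFit, eBayes with trend) on log2(RPKM + 1) after TMM scaling without weights, which trims 30% of the ratios and 5% of the levels, over genes that exceeded 1 RPKM in 4 or more of 8 Ad-LacZ libraries, or in 2 or more of 4 for the sex labels. TMM multiplied RPKM by 1.05 in F1 and in M1, 0.908 in M2 and 0.997 in F2. Genes were called at a Benjamini-Hochberg adjusted p under 0.05. Between preparations, limma p-values rest on 1 DMSO and 1 JNK Inh library per preparation. Their residual spread thus includes any inhibitor effect that differs between preparations, and not only the spread between like cultures. Between sex labels, limma p-values measure the spread between preparations of the same label. The procedure was tested on simulated data in which all genes had the same residual spread and no inhibitor effect. Such data do not cover an inhibitor effect that differs between preparations. Tables used Python 3.11.15, numpy 2.4.6, pandas 2.3.3 and Biopython 1.88.

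Named genes are the 20 highest means, members of 27 lists, the 10 largest SDs of log2 values among means of at least 10 RPKM and the 5 smallest among means of at least 100, the 10 smallest p between preparations among means of at least 10, and calls between sex labels. Some members of the lists are not reported here. The members and lists were chosen with earlier results of these data known. Libraries of the same label, such as F1, are parallel cultures of a preparation. Their deviations from the mean of the condition correlated at 0.0832 to 0.741 with those of the baseline. For F2 in Ad-LacZ + JNK Inh the value was 0.103. Between different preparations the correlations reached 0.564, with means by condition from -0.185 to -0.121. Alternatives were another pseudocount, filter, scaling, variance trend, set of libraries, or sum, and each preparation left out.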

Additional observations from a re-analysis of the deposited data

Results flagged for a closer look

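In 4 of 62 values examined over the 4 baseline libraries, 1 library lay further from the rest than Dixon's limit for 4 samples (0.829 of the range), where chance flags about 1 in 20. The α cell markers summed to 19473 RPKM in F1 against 12942 to 13888 in the others, which rests on Gcg, at 18702 RPKM in F1 against 12334 to 13268. The endothelial markers summed to 80.1 RPKM in M2 against 47.3 to 50.6. Xist was at 42.3 RPKM in M2 against at most 3.03.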

How the results depend on the processing

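The number of genes called between preparations, 472, was 97 with no filter, 254 with quantile normalization and 4457 with all 16 libraries, where condition is a term. Leaving out each preparation gave 9 to 687 calls, and 111 genes were called without the libraries labelled M2 and F2, an alternative chosen after seeing the data. Of the 472 genes, 66 were called again with no filter, 247 with quantile normalization, 457 with all 16 libraries, 24 without M1, 9 without M2 and 60 without the libraries labelled M2 and F2. The cause was not tested. A pseudocount of 0.1, a filter at 0.1 RPKM, RPKM as deposited and eBayes without trend gave 478 to 565 calls. Between sex labels, 1 gene was called without replicate F2 and 1 without replicate M2, and 0 in the other alternatives.

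The hormone share, 28.1%, was 10.7% on RPKM times gene length, where short genes weigh less, and 26.5% to 29.6% with a preparation left out. Ins2 over Ins1, 1.29, was 1.59 on RPKM times exon length, an alternative added later, because the exon lengths differ. With the preparation as a replicate block, an exact sign-flip test of the paired differences gave p = 0.125 for each. This is the smallest p it can give, so it could call none of -6.18, -4.05 and -4.60 percentage points. Leaving out each preparation, these ranged from -6.50 to -5.31, from -4.81 to -3.37 and from -5.92 to -3.68, where an exact permutation test of 3 against 3 cannot go below p = 0.1. Of the 10 genes with the largest SD, leaving out a preparation chose 6 to 8 again, with 6 without replicate M2, and the other alternatives chose all 10. Depth limits low genes: 3 reads on 1 kb are 0.130 to 0.191 RPKM.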
